A study of Drosophila melanogaster with 7 samples.

Results

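Serotonergic neurons of the adult fly brain were taken from 7 single-cell RNA sequencing runs as the cell barcodes that hold the genes for making, recapturing and packaging serotonin together. Of 157482 barcodes kept, 362 qualified, or between 0.139% and 0.273% of the barcodes of a run. A member had at least 2 UMIs (unique molecular identifiers, which count transcripts once) of Trh, the tryptophan hydroxylase of neurons, and at least 1 UMI each of SerT, the plasma membrane serotonin transporter, and Vmat, the vesicular monoamine transporter. It had 0 UMIs of ple, the tyrosine hydroxylase of dopaminergic neurons, of Tdc2, the tyrosine decarboxylase of octopaminergic and tyraminergic neurons, and of repo, the transcription factor of glia. Barcodes under 200 genes or with over 30% mitochondrial UMIs had been set aside, and the members were thus chosen by their own counts of these 6 genes.

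Each run was a library of pooled central brains, without optic lobes, from male flies of DGRP lines, which are inbred and fully sequenced. The runs mixed between 5 and 9 of 10 lines, aged 4 to 9 days, with between 2 and 4 behavioral conditions (spontaneous sleep or wakefulness, sleep deprivation, rebound sleep, yoked control sleep or sleep induced by gaboxadol, GBX). Flies were taken at ZT8 and ZT20 (hours after lights on) in run 1, ZT2 and ZT20 in runs 2 and 3, ZT2 and ZT14 in run 4, ZT20 in run 5 and ZT8 in runs 6 and 7. Since the barcodes are not joined to flies here, the parts of line, time, condition and run cannot be told apart. The runs served as the replicates of one group. Where nothing ties them to separate cultures of flies, the p-values measure only the spread between these runs.

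Serotonin is made from tryptophan in a pair of steps. Tryptophan hydroxylase adds a hydroxyl group with the help of tetrahydrobiopterin, and Ddc, the aromatic amino acid decarboxylase that dopaminergic neurons use too, removes the carboxyl group. Vmat loads the amine into vesicles, SerT takes it back after release, and G protein-coupled receptors on target cells and on the serotonergic neurons themselves read it. In the fly brain, serotonergic neurons are few, sit in small bilateral clusters with wide arbors, and are known for roles in sleep, feeding, memory and aggression. Trh lies on chromosome arm 3L, 1190384 to 1193173, reverse strand, SerT on chromosome arm 2R, 24404595 to 24411074, reverse strand, and Vmat on chromosome arm 2R, 13513132 to 13534251, reverse strand, in the Ensembl annotation of BDGP6, where Trh is listed by its newer symbol Trhn.

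By run, 41, 82, 85, 90, 28, 19 and 17 members were found in runs 1 to 7. The share of kept barcodes was 0.214% ± 0.0495 (SD, n = 7 runs), lowest in run 6 (0.139%, exact 95% interval 0.0837% to 0.217%) and highest in run 4 (0.273%, 0.219% to 0.335%). Among barcodes with at least 3000 UMIs, the share was again lowest in run 6 (0.182%, 0.109% to 0.284%) but highest in run 5 (0.308%, 0.201% to 0.451%), so the order of the runs depended on barcodes of low count, and these intervals overlap. Intervals here are Clopper-Pearson and cover counting error only. Members were deep. The median member had 16006 UMIs (range 647 to 115837), and the median per run lay between 11642 and 22211. In other neurons the median per run lay between 4104 and 6940.5 UMIs, in dopaminergic neurons between 4633 and 7195 and in Tdc2 neurons between 7567 and 13139.5. The rule asked for UMIs of 3 genes at once, which deep barcodes reach more readily. Other neurons needed 1 UMI of a neuronal gene. Members with exactly 2 UMIs of Trh had a median of 6138 UMIs, and those with 3 or more 16542 UMIs. The part of the gates in these depths was not tested. The members together hold 6933367 UMIs, between 324323 and 2257464 per run. Runs 2, 3 and 4 contain no barcode under 2658 UMIs, whereas the other runs go down to 500. No member barcode recurred in another run, while 3011 of 160991 distinct barcodes of the series did. Scrublet, which marks barcodes that look like 2 cells, called 22 members (6.08%), against 11.6% of other neurons.

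The members were compared with 3 populations of the same runs. Dopaminergic neurons (1762 barcodes) had ple (at least 2 UMIs), DAT and Vmat without Trh, Tdc2 or repo, and Tdc2 neurons (608) had Tdc2 (at least 2 UMIs) and Vmat without Trh, ple or repo. Other neurons (133707) had elav or nSyb, both pan-neuronal, without Trh, SerT or repo, and include both aminergic populations and the Kenyon cells of the mushroom body. Kenyon cells (14875) and glia (1062) served as background. Levels are given as CPM, the UMIs of a gene per 1000000 UMIs of the population in a run, with the SD over the 7 runs. Differences are log2 differences with their standard errors from edgeR's quasi-likelihood test with the run as a block, positive where serotonergic neurons are higher, and a gene was called at an adjusted p under 0.05. A gene whose mean lay under the filter level (14.8 CPM against other neurons, 14.7 CPM in the other comparisons) in 1 population passed the filter through the population where it was higher, which bore on its direction. The counts and medians of the lists therefore cover the genes that reached this level in both populations. The genes of the rule are described without a test.

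The label was checked against markers that the rule did not use. The rule had shut out barcodes with ple, Tdc2 or repo, however. Low levels of other dopaminergic, octopaminergic and glial markers are therefore not independent of it. Together, the neuronal genes brp, Syt1 and para made up 4052 to 4652 CPM in members and 4223 to 4725 CPM in other neurons. The 10 glial markers other than repo summed to 61.7 to 484 CPM in members, 215 to 918 CPM in other neurons and 10164 to 17507 CPM in glia. The 4 Kenyon cell markers outside the gate summed to 617 to 921 CPM in members, 1320.3 to 1591 CPM in other neurons and 3179 to 5987 CPM in Kenyon cells. Tbh, the enzyme of octopamine synthesis, lay at 8.96 to 46.3 CPM in members and 1226 to 2187 CPM in Tdc2 neurons. The 2 dopaminergic markers outside the gate summed to 52.4 to 122 CPM in members and 63.1 to 84.4 CPM in other neurons. In dopaminergic neurons they summed to 110 to 291 CPM, so the members' range overlapped with both populations and this list did not separate them. The hemocyte, muscle and photoreceptor lists (4 genes each, with the hemocyte gene He at 0 UMIs) stayed under 5.29 CPM in members in every run, and the 3 insulin genes of insulin-producing cells summed to 2.99 to 142 CPM. The part of such RNA from other cells in the differences below was not tested.

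The 3 genes of the rule are given as a description. Trh ran from 1927 to 4559 CPM with a median of 3315 CPM, SerT from 2076 to 3177 CPM with a median of 2354 CPM, and Vmat from 17409.9 to 26193 CPM with a median of 21657 CPM. Single members had a median of 30.5 UMIs of Trh (quartiles 7 and 71), 27 of SerT and 246 of Vmat. Of 927 barcodes with at least 2 UMIs of Trh, 485 lacked SerT and 297 lacked Vmat, whereas ple, Tdc2 and repo were present in 80, 44 and 52. The 23 members with exactly 2 UMIs of Trh had 2526 CPM of Ddc. The 92 barcodes just outside, with 1 UMI of Trh and all else met, had 1184 CPM, and the 339 members with 3 or more had 3514 CPM. A further 395 barcodes with Trh but no SerT, at 59.9 CPM of Vmat and 1863 CPM of VGlut, had 1149 CPM of Ddc, so that Trh alone also takes in barcodes with little Vmat.

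The enzymes that stand around Trh in the pathway were higher in serotonergic neurons. Ddc (chromosome arm 2L, 19116483 to 19120306, reverse strand) ran from 3058 to 4765 CPM with a median of 3426 CPM in members, 808 to 1171 CPM in other neurons, 1869 to 3064 CPM in dopaminergic neurons and 308 to 544 CPM in Tdc2 neurons. The members' runs lay apart from those of other and Tdc2 neurons, and only the lowest of them met the highest run of dopaminergic neurons. Within a run, members were higher than dopaminergic neurons in 7 of 7. The log2 difference was 1.94 ± 0.097 (adjusted p = 1.97e-08) against other neurons, 0.54 ± 0.078 (adjusted p = 3.24e-04) against dopaminergic neurons and 3.21 ± 0.11 (adjusted p = 1.48e-09) against Tdc2 neurons. Pu, the GTP cyclohydrolase that opens the synthesis of tetrahydrobiopterin (chromosome arm 2R, 21175315 to 21182608, forward strand), ran from 185 to 424 CPM with a median of 231 CPM in members, against 18.6 to 26.4 CPM, 66.1 to 133 CPM and 98.6 to 199 CPM in other, dopaminergic and Tdc2 neurons. Its ranges were apart from those of other and dopaminergic neurons and overlapped only with Tdc2 neurons, with log2 differences of 3.50 ± 0.099 (adjusted p = 2.49e-10), 1.34 ± 0.12 (adjusted p = 8.10e-06) and 0.93 ± 0.087 (adjusted p = 1.33e-05).

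The tetrahydrobiopterin genes Sptr and Dhpr differed less than Pu from other and dopaminergic neurons. Of the 6 genes of amine and cofactor synthesis counted (of 7), 6 were higher than in other neurons, where 24% of all genes at the filter level in both populations were called higher and 22.6% lower. The list's median log2 difference was 1.79, beside -0.0017 over all genes. Against dopaminergic neurons 4 were higher (background 12.3% higher, 11.7% lower; list median 0.54, all genes -0.015), and against Tdc2 neurons 3 were (background 3.15% higher, 3.79% lower; list median 0.22, all genes -0.0044). Sptr, the sepiapterin reductase of the same pathway, ran from 41.7 to 92.5 CPM with a median of 59.9 CPM in members, 21.03 to 32.9 CPM in other neurons and 28.9 to 63.7 CPM in dopaminergic neurons, with log2 differences of 1.17 ± 0.10, adjusted p = 1.96e-06 and 0.55 ± 0.12, adjusted p = 0.00439. The latter call was lost without the run as a block. Dhpr, the dihydropteridine reductase that restores the cofactor, differed by 1.71 ± 0.067, adjusted p = 1.85e-09 against other neurons and -0.055 ± 0.097, adjusted p = 0.737 against dopaminergic neurons. Hn, the phenylalanine hydroxylase, had 2 UMIs in all members together, so no level can be given for it.

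**Figure D1:**
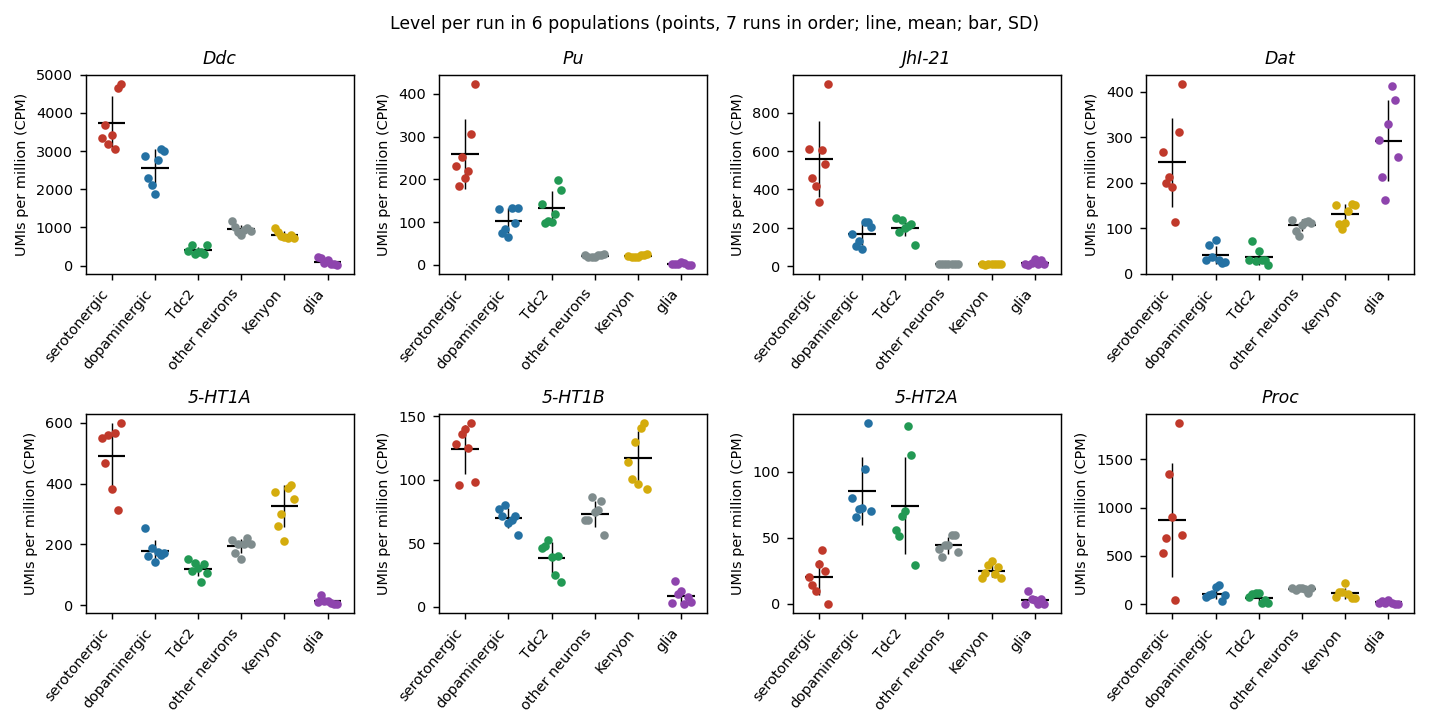
Level in CPM (UMIs per 1000000) of 8 genes in each of the 7 runs (points, ordered by run), in serotonergic, dopaminergic, Tdc2 and other neurons, Kenyon cells and glia, with the mean (line) and SD (bar) over runs. Ddc, Pu and JhI-21 are highest in serotonergic neurons in the mean, Dat is as high in glia, 5-HT2A is lowest among the 4 neuronal populations gated on amine or neuronal genes, and Proc has one low run at 49.4 CPM.

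Genes of amine transport, precursor uptake and breakdown split in direction. JhI-21, a transporter of large neutral amino acids (chromosome arm 2L, 12051755 to 12056042, reverse strand), ran from 335 to 952 CPM with a median of 533 CPM in members, 7.96 to 9.83 CPM in other neurons, 90.99 to 230.1 CPM in dopaminergic neurons and 112 to 253 CPM in Tdc2 neurons. No run of the members fell within the range of the other 3 populations, and the log2 differences were 5.86 ± 0.19 (adjusted p = 4.59e-10), 1.78 ± 0.10 (adjusted p = 3.34e-07) and 1.3 ± 0.18 (adjusted p = 4.25e-04). The related transporter mnd, at 0 to 9.003 CPM in members, was too low for a test. Dat, listed here by the older symbol of the arylalkylamine N-acetyltransferase that acetylates serotonin and dopamine, ran from 115 to 418 CPM with a median of 212 CPM in members, 82.9 to 119 CPM in other neurons, 24.7 to 73.9 CPM in dopaminergic neurons and 19.4 to 72.6 CPM in Tdc2 neurons. The log2 differences were 1.12 ± 0.16 (adjusted p = 7.81e-05), 2.39 ± 0.26 (adjusted p = 4.85e-05) and 2.40 ± 0.22 (adjusted p = 1.31e-05), and glia, at 162 to 412 CPM, were in the same range as members. The call of Dat against other neurons was lost under an exact sign-flip test over the runs.

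The transporter DAT of dopamine (chromosome arm 2R, 16558567 to 16565238, reverse strand) was close to absent from members, at from 0 to 14.7 CPM with a median of 2.85 CPM, against 69.4 to 115 CPM in other neurons (log2 difference -3.82 ± 0.26, adjusted p = 3.13e-07) and 4.86 to 176 CPM in Tdc2 neurons (-2.78 ± 0.37, adjusted p = 2.64e-04). It served to gate dopaminergic neurons and was not tested against them. Those neurons are part of the other neurons, and the rule had shut out barcodes with ple. The differences of DAT are therefore not independent of the gates. The vesicular transporter prt, known from the mushroom body, was lower than in other neurons (9.67 against 61.4 CPM in the mean, log2 difference -2.16 ± 0.24, adjusted p = 1.42e-05) and than in dopaminergic neurons (-1.16 ± 0.20, adjusted p = 0.00131). Tbh differed by -5.69 ± 0.21, adjusted p = 1.48e-09 from Tdc2 neurons, where it makes octopamine. Both gates used Tdc2, so this difference is not independent of them. Of 3 genes counted (of 12), 1 was higher and 2 lower than in other neurons, 2 higher and 0 lower of 4 against dopaminergic neurons, and 3 higher and 1 lower of 4 against Tdc2 neurons. The shares of all genes called higher and lower were 24% and 22.6%, 12.3% and 11.7%, and 3.15% and 3.79% in the same order. DAT and prt were under the filter level in members and left out of these counts, and JhI-21, under it in other neurons, was left out of the count against those. The gene hdc, headcase, is among the lower genes against other neurons and among the higher genes against Tdc2 neurons. The list took it up by its symbol, and it has no known role in amine handling.

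All 5 serotonin receptors were tested, and 5-HT1A and 5-HT1B were higher in all 3 comparisons. 5-HT1A, a receptor that lowers cyclic AMP (chromosome arm 2R, 19067155 to 19121958, forward strand), ran from 315 to 600.1 CPM with a median of 549 CPM in members, 153 to 222 CPM in other neurons, 141 to 254 CPM in dopaminergic neurons and 75.03 to 152 CPM in Tdc2 neurons, with no overlap in any comparison, where ranges did not overlap for 12.5%, 4.44% and 2.76% of all genes tested. The log2 differences were 1.32 ± 0.094 (adjusted p = 3.90e-07), 1.44 ± 0.090 (adjusted p = 5.86e-07) and 1.94 ± 0.14 (adjusted p = 1.07e-06). 5-HT1B, of the same class, ran from 96.3 to 145 CPM with a median of 128 CPM in members and 56.6 to 86.8 CPM in other neurons, with differences of 0.72 ± 0.071 (adjusted p = 5.04e-06), 0.78 ± 0.091 (adjusted p = 6.83e-05) and 1.5 ± 0.13 (adjusted p = 9.42e-06). Kenyon cells, at 211 to 394 CPM for 5-HT1A and 93.1 to 144 CPM for 5-HT1B, overlapped with the members for both genes.

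Of the 2 Gq-coupled receptors, only 5-HT2A reached the filter level in members, and it went the other way. 5-HT2A ran from 0 to 40.5 CPM with a median of 19.96 CPM in members, 35.1 to 52.1 CPM in other neurons, 65.6 to 137 CPM in dopaminergic neurons and 29.2 to 135 CPM in Tdc2 neurons, and the differences were -1.25 ± 0.23 (adjusted p = 7.17e-04), -2.10 ± 0.22 (adjusted p = 3.95e-05) and -1.94 ± 0.20 (adjusted p = 3.55e-05). 5-HT2B ran from 3.08 to 16.4 CPM with a median of 11.4 CPM in members and 85.3 to 206 CPM in Tdc2 neurons, with differences of -0.87 ± 0.15 (adjusted p = 4.45e-04), -1.22 ± 0.16 (adjusted p = 1.81e-04) and -3.33 ± 0.17 (adjusted p = 5.82e-08). 5-HT7, which raises cyclic AMP, was called against other neurons only (0.51 ± 0.12, adjusted p = 0.00361), with values of 0.41 ± 0.15, adjusted p = 0.0626 against dopaminergic and -0.63 ± 0.21, adjusted p = 0.105 against Tdc2 neurons. The call of 5-HT7 was lost in runs 1, 5, 6 and 7 alone. 5-HT2B was under the filter level in members and passed the filter through the other populations, which bore on its direction. The counts over the other 4 receptors were 3 higher and 1 lower against other neurons, 2 and 1 against dopaminergic neurons, and 2 and 1 against Tdc2 neurons. Over all genes, the shares higher and lower were 24% and 22.6%, 12.3% and 11.7%, and 3.15% and 3.79%.

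Receptors for the other amines were mixed. Of 11 counted, 5 were higher and 4 lower than in other neurons (median -0.15), 3 and 2 against dopaminergic neurons (median 0.067), and 2 and 2 of 10 against Tdc2 neurons, where TyrR was under the filter level (median -0.24). For all genes these shares were 24% and 22.6%, 12.3% and 11.7%, and 3.15% and 3.79%. Oamb, an octopamine receptor, ran from 143 to 179 CPM with a median of 153 CPM in members and 53.5 to 71.3 CPM in other neurons, with differences of 1.35 ± 0.067 (adjusted p = 1.88e-08), 0.42 ± 0.077 (adjusted p = 0.00161) and 1.49 ± 0.18 (adjusted p = 1.11e-04). TyrR, a tyramine receptor, differed by 0.79 ± 0.083 (adjusted p = 8.13e-06), 1.24 ± 0.13 (adjusted p = 2.66e-05) and 2.05 ± 0.22 (adjusted p = 3.76e-05), from 71.6 CPM in the members' mean. In runs 1, 5, 6 and 7 alone the call of Oamb against dopaminergic neurons was lost. Dop1R1, a dopamine receptor that raises cyclic AMP, was lower in all 3 comparisons, by -0.67 ± 0.083 (adjusted p = 3.38e-05), -0.74 ± 0.082 (adjusted p = 5.21e-05) and -0.70 ± 0.089 (adjusted p = 1.80e-04).

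Dop2R, the dopamine receptor that lowers cyclic AMP and acts as an autoreceptor in dopaminergic neurons, ran from 3086 to 11142 CPM with a median of 6469 CPM in members, 5037 to 15871 CPM in dopaminergic neurons, 2409 to 4311 CPM in Tdc2 neurons and 2644 to 5609 CPM in other neurons, with log2 differences of -0.81 ± 0.058 (adjusted p = 1.45e-06) against dopaminergic, 0.77 ± 0.15 (adjusted p = 0.00437) against Tdc2 and 0.49 ± 0.090 (adjusted p = 6.40e-04) against other neurons. None of these calls was kept throughout. Without the run as a block the calls against dopaminergic and other neurons were lost, that against other neurons also with DESeq2, and that against Tdc2 neurons under the exact sign-flip test and in runs 2, 3 and 4 alone, where the difference was 0.24. The runs fell apart into a low and a high set. Members of runs 2, 3 and 4 had 3086 to 4079.6 CPM and members of the other 4 runs 6469 to 11142 CPM. The same split stood in dopaminergic neurons (5037 to 7309 and 13418 to 15871 CPM) and in other neurons (2644 to 3327 and 4788 to 5609 CPM), whereas in Tdc2 neurons the runs overlapped (2409 to 4145 and 2900.2 to 4311 CPM). CR31451, a noncoding RNA, was also lower in runs 2, 3 and 4, with 6489.7 to 7721 CPM in members there and 9441 to 12624 CPM in the other runs. These runs are those without barcodes of low UMI count, and each of them took flies at ZT2. The part of depth, time, line and condition in the split cannot be told apart, and the comparisons between populations above were made within runs.

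**Figure D2:**
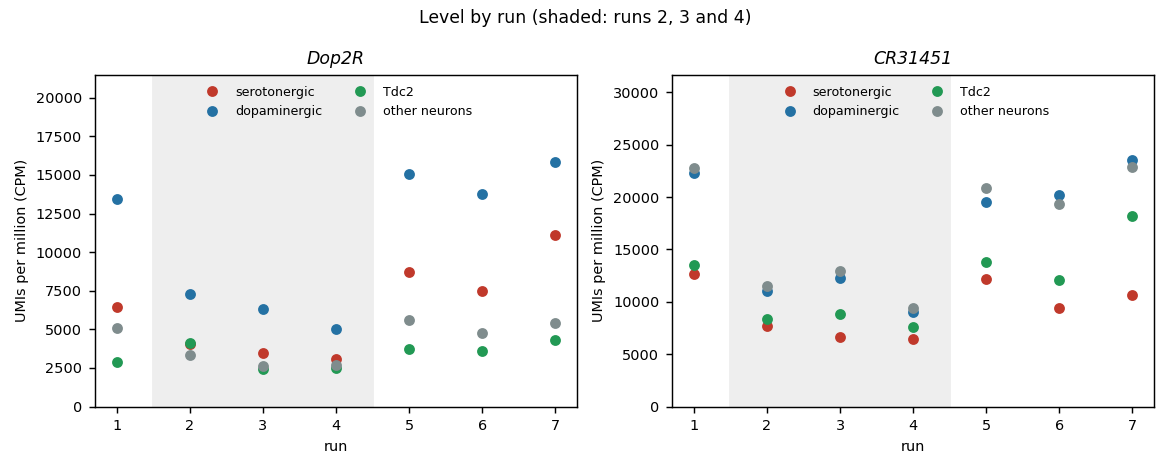
Level in CPM of Dop2R and CR31451 in each of the 7 runs, with one point per run and population, for serotonergic, dopaminergic, Tdc2 and other neurons. Runs 2, 3 and 4 are shaded. In them the serotonergic points of Dop2R lie at 3086 to 4079.6 CPM, below the 6469 to 11142 CPM of the other runs, and those of CR31451 at 6489.7 to 7721 CPM, below 9441 to 12624 CPM.

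Genes that make or load a fast transmitter were lower in serotonergic neurons than in other neurons. All 6 genes of the list were lower, with a median log2 difference of -2.17, and for all 6 the ranges over runs did not overlap, as for 12.5% of all genes tested. Against dopaminergic neurons 4 of 6 were lower (median -0.84) and against Tdc2 neurons 1 (median -0.49), and none was higher. Among all genes, 22.6%, 11.7% and 3.79% were lower than in other, dopaminergic and Tdc2 neurons. VGlut, the vesicular glutamate transporter, ran from 83.3 to 512 CPM with a median of 382 CPM in members and 658 to 793 CPM in other neurons, a difference of -1.25 ± 0.24 (adjusted p = 7.99e-04). VAChT, the vesicular acetylcholine transporter, ran from 32.8 to 193 CPM with a median of 101 CPM and 437 to 517 CPM, a difference of -2.25 ± 0.22 (adjusted p = 4.85e-06). Gad1, the glutamate decarboxylase that makes GABA, ran from 35.6 to 236 CPM with a median of 148 CPM and 458 to 644 CPM, a difference of -2.30 ± 0.21 (adjusted p = 2.30e-06).

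Whether single members hold a fast transmitter gene was read at an equal depth of 1000 UMIs per barcode, where the expected share of members with at least 1 UMI was 20.5% for VGlut, 11.5% for VAChT and 11.2% for Gad1. The same shares were 16.7%, 39.98% and 16.1% in Kenyon cells, which are cholinergic, and 7.26%, 4.45% and 8.33% in glia. Shares in members exceeded those in glia for all 3 genes. They exceeded those in Kenyon cells for VGlut but not for Gad1. For VAChT, Kenyon cells are no background, since they use this gene themselves. Without thinning they were 56.4%, 53.3% and 52.8% in members and 46.6%, 89.9% and 48.4% in Kenyon cells. The UMIs were unevenly spread over the members. At least 5 UMIs in a single member were reached by VGlut in 79, by VAChT in 52 and by Gad1 in 40 of 362 members. 216 members reached it for none of these 3 genes, 60 for VGlut alone, 35 for VAChT alone, 27 for Gad1 alone and 24 for more than one.

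Most neuropeptide genes were low in serotonergic neurons, where 26 of 38 lay under the filter level in the mean. Of 12 counted against other neurons, 7 were lower and 2, Proc and Gpb5, were higher. A further 13 passed the filter only through other neurons, and no count or median is given over them. Against dopaminergic neurons 1 was higher and 2 lower of 10 counted, and against Tdc2 neurons 1 and 3 of 11. Shares higher and lower over all genes were 24% and 22.6%, 12.3% and 11.7%, and 3.15% and 3.79% in the 3 comparisons. Proc, which encodes the peptide proctolin (chromosome arm 2L, 7864642 to 7871432, reverse strand), ran from 49.4 to 1875 CPM with a median of 714 CPM in members, 114 to 173 CPM in other neurons, 31.6 to 196 CPM in dopaminergic neurons and 9.72 to 119 CPM in Tdc2 neurons, with differences of 2.17 ± 0.41 (adjusted p = 8.60e-04), 2.80 ± 0.54 (adjusted p = 0.00231) and 3.41 ± 0.29 (adjusted p = 5.84e-06). The calls of Proc against other and dopaminergic neurons were lost in runs 1, 5, 6 and 7 alone and under an exact sign-flip test over the runs. The lowest value came from run 5, with 28 members. Pdf, the peptide of clock neurons, ran from 0 to 14.7 CPM with a median of 8.55 CPM in members, 22.5 to 1338 CPM in other neurons and 0 to 45.2 CPM in glia, with a difference of -5.29 ± 0.37 (adjusted p = 3.29e-07) against other neurons. Crz (corazonin) and Hug (hugin) were lower than in other neurons by -4.45 ± 0.23 (adjusted p = 3.11e-08) and -4.19 ± 0.46 (adjusted p = 1.27e-05). SIFa was far below Tdc2 neurons, where it reached 1342 CPM in the mean (-6.80 ± 0.47, adjusted p = 9.22e-07). Pdf, Crz, Hug and SIFa were all under the filter level in members. Ms (myosuppressin) had 14621 UMIs in the members, but 12096 of them lay in a single barcode.

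Receptors for peptides and hormones were detected more sparsely. Of 14 counted against other neurons (of 41), 7 were higher and 3 lower (median 0.34). The counts were 3 and 2 of 15 against dopaminergic neurons (median -0.054) and 1 and 1 of 16 against Tdc2 neurons (median 0.090). All genes together had 24% higher and 22.6% lower, 12.3% and 11.7%, and 3.15% and 3.79% in the 3 comparisons. Dh44-R1, a receptor for the diuretic hormone Dh44, ran from 29.96 to 107 CPM with a median of 43.2 CPM in members and 20.2 to 29.2 CPM in other neurons, without overlap, with differences of 1.23 ± 0.22 (adjusted p = 5.18e-04) and, against Tdc2 neurons, 1.22 ± 0.19 (adjusted p = 9.80e-04). The receptor sNPF-R for short neuropeptide F differed by 0.57 ± 0.15 (adjusted p = 0.00637) from other and 1.52 ± 0.25 (adjusted p = 8.95e-04) from dopaminergic neurons, and SIFaR, under the filter level there, by 1.38 ± 0.20 (adjusted p = 2.94e-04) from dopaminergic neurons. Pdfr, the receptor for Pdf, was lower than in other neurons (-0.51 ± 0.13, adjusted p = 0.00605) and Tdc2 neurons (-0.57 ± 0.14, adjusted p = 0.0194), at 18.6 CPM in the members' mean, and EcR, the ecdysone receptor, was lower than in other neurons (-0.37 ± 0.060, adjusted p = 2.40e-04) and dopaminergic neurons (-0.23 ± 0.062, adjusted p = 0.0149). The call of Pdfr against Tdc2 neurons was lost on leaving out run 2, 3 or 4, and that of EcR against dopaminergic neurons with DESeq2.

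Transcription factors of neuron identity differed in both directions. Of 33 counted (of 52), 10 were higher and 16 lower than in other neurons (median -0.39), 6 and 12 of 30 against dopaminergic neurons (median -0.35), and 3 and 5 of 23 against Tdc2 neurons (median -0.37). Beside these stand shares over all genes of 24% and 22.6%, 12.3% and 11.7%, and 3.15% and 3.79%. The zinc-finger homeodomain gene zfh1 ran from 121 to 167 CPM with a median of 137 CPM in members and 21.9 to 37.01 CPM in other neurons, with differences of 2.25 ± 0.095 (adjusted p = 4.35e-09), 1.74 ± 0.15 (adjusted p = 5.72e-06) and 1.63 ± 0.18 (adjusted p = 6.54e-05). The POU-domain gene vvl ran from 176 to 645 CPM with a median of 252 CPM and 118 to 159.9 CPM, with differences of 1.00 ± 0.19 (adjusted p = 8.22e-04), 1.92 ± 0.13 (adjusted p = 7.30e-07) and 1.17 ± 0.19 (adjusted p = 0.00114). Glia, at 52.8 to 143 CPM for zfh1 and 109 to 405 CPM for vvl, overlapped with the members for both genes. The neighbouring POU-domain genes nub and pdm2 were higher in all 3 comparisons, by 1.78, 0.96 and 1.74 for nub and 1.80, 1.08 and 1.29 for pdm2. Both lay under the filter level in all 3 other populations, and both calls against dopaminergic neurons were lost in runs 2, 3 and 4 alone (0.46 for nub and 0.94 for pdm2). Their more distant relative pdm3 was lower in each, by -1.27, -1.31 and -1.69.

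Among the factors lower in serotonergic neurons, Lim1, a LIM homeodomain factor, ran from 46.3 to 131 CPM with a median of 85.8 CPM in members and 179 to 246 CPM in other neurons (-1.17 ± 0.15, adjusted p = 4.86e-05). Lin29, a zinc-finger factor also called datilografo, ran from 23.9 to 115 CPM with a median of 69.1 CPM and 321 to 370.4 CPM (-2.31 ± 0.17, adjusted p = 4.59e-07), and it differed by -2.38 ± 0.15 (adjusted p = 6.80e-07) from dopaminergic neurons. Fer2, a bHLH factor that dopaminergic neurons need, differed by -2.37 ± 0.33 (adjusted p = 2.69e-04) from them. The RNA-binding proteins Imp and Syp, which run in opposite gradients in neural stem cells, differed in opposite directions from other and dopaminergic neurons, while against Tdc2 neurons only Syp was called. Imp differed by 1.25 ± 0.069 (adjusted p = 4.67e-08), 1.09 ± 0.075 (adjusted p = 1.07e-06) and -0.068 ± 0.078, adjusted p = 0.737, and Syp by -1.23 ± 0.073 (adjusted p = 1.07e-07), -0.62 ± 0.082 (adjusted p = 1.81e-04) and -0.57 ± 0.088 (adjusted p = 8.30e-04). The listed genes hkb and eg, known from the embryonic lineages of serotonergic neurons, were too low for a test. The zinc-finger gene hkb had 51 UMIs in members, from 5.24 to 12.3 CPM with a median of 7.05 CPM by run, against 0.3997 to 0.681 CPM in other neurons, so the runs did not overlap, and eg had 0 UMIs, which allows up to 0.433 CPM over all members. The homeodomain genes en and inv, also part of embryonic serotonergic lineages, had 19.8 and 18.8 CPM in the mean.

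**Figure D3:**
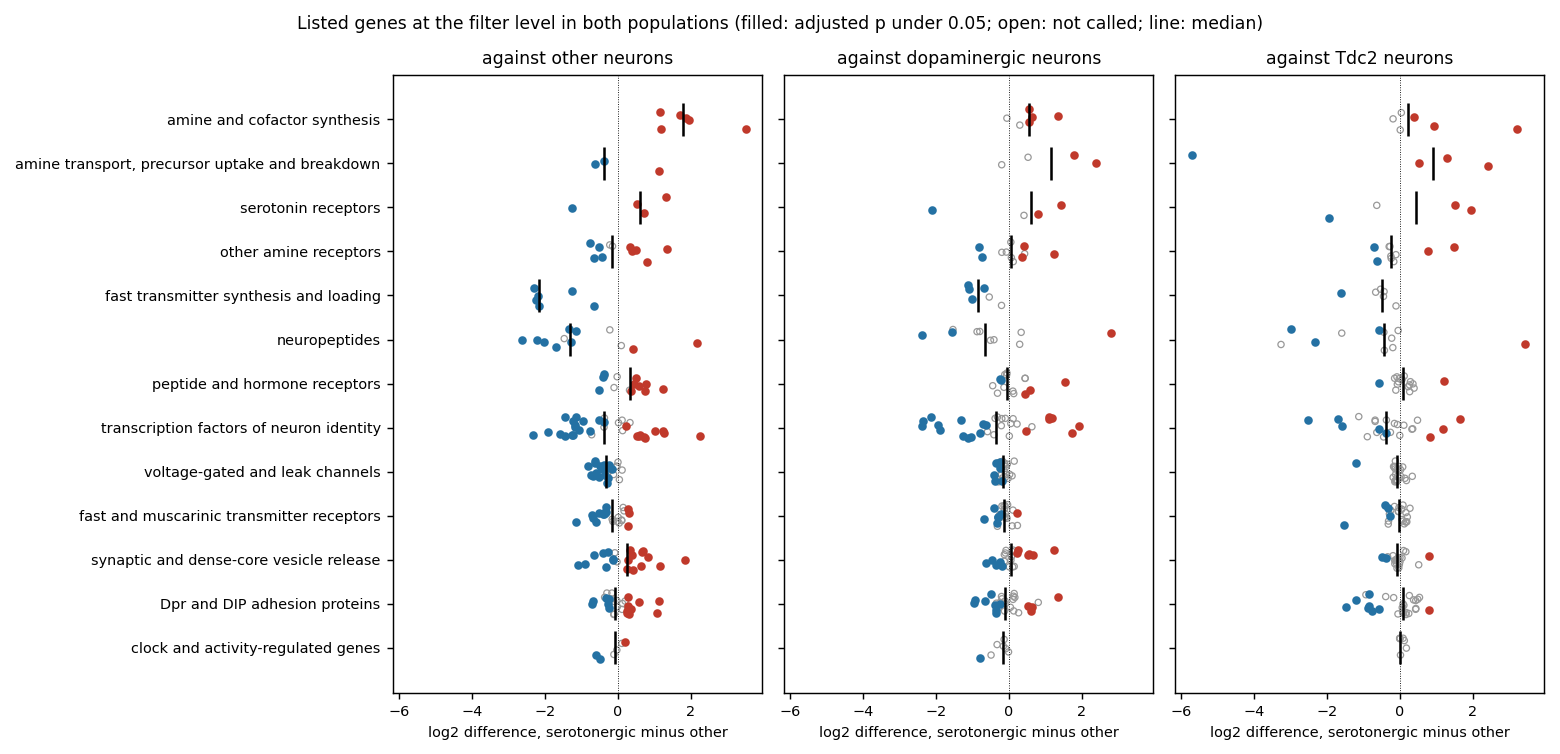
Log2 differences (serotonergic minus the other population) of the genes of 13 lists that reached the filter level in both populations, against other neurons, dopaminergic neurons and Tdc2 neurons. Each point is one gene, filled red where called higher, filled blue where called lower and open where not called, and the line is the list's median, which is 1.79, 0.54 and 0.22 for amine and cofactor synthesis and -2.17, -0.84 and -0.49 for fast transmitters.

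Voltage-gated and leak channels were at or below the level of other neurons. None of 24 counted was higher and 17 were lower (median -0.33), 6 of 24 were lower than in dopaminergic neurons (median -0.17), and 1 of 24 than in Tdc2 neurons (median -0.080). Genes lower over all genes made up 22.6%, 11.7% and 3.79%, and the count against Tdc2 neurons was near that share. The sodium channel gene para ran from 1384 to 1626 CPM with a median of 1565 CPM in members and 1796 to 2011 CPM in other neurons, a difference of -0.31 ± 0.043 (adjusted p = 7.81e-05). NaCP60E, a related cation channel gene, and Shab, a delayed rectifier potassium channel, were further down, by -0.82 ± 0.069 (adjusted p = 1.37e-06) and -0.73 ± 0.074 (adjusted p = 5.92e-06), and Ih, the hyperpolarization-activated channel, by -0.64 ± 0.058 (adjusted p = 2.47e-06). Against Tdc2 neurons the one gene called was Elk, a potassium channel (-1.19 ± 0.17, adjusted p = 5.04e-04). Receptors for fast transmitters and muscarinic receptors counted 3 higher and 11 lower of 23 against other neurons (median -0.16), 1 and 6 of 23 against dopaminergic neurons (median -0.13), and 0 and 4 of 23 against Tdc2 neurons (median -0.025). Higher genes made up 24%, 12.3% and 3.15% of all genes in these comparisons. The metabotropic glutamate receptor mGluR ran from 17.6 to 129.5 CPM with a median of 98.5 CPM in members and 152 to 218 CPM in other neurons (-1.16 ± 0.19, adjusted p = 2.33e-04). The nicotinic subunits nAChRbeta1 and nAChRalpha7 were lower than in other neurons by -0.69 ± 0.059 (adjusted p = 1.54e-06) and -0.71 ± 0.074 (adjusted p = 7.11e-06), as was Rdl, a GABA-gated chloride channel (-0.42 ± 0.059, adjusted p = 8.92e-05). The 3 genes that were higher were GABA-B-R2, Nmdar2 and Lcch3, at 0.27, 0.28 and 0.30.

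Genes of vesicle release differed in both directions. Of 21 counted, 11 were higher and 8 lower than in other neurons (median 0.25), 6 and 5 of 22 against dopaminergic neurons (median 0.062), and 1 and 2 of 22 against Tdc2 neurons (median -0.067). As shares of all genes, 24% and 22.6%, 12.3% and 11.7%, and 3.15% and 3.79% were called higher and lower. Sytbeta, a synaptotagmin, ran from 208 to 577 CPM with a median of 374 CPM in members and 72.9 to 137 CPM in other neurons, with differences of 1.83 ± 0.094 (adjusted p = 2.42e-08), 1.24 ± 0.085 (adjusted p = 1.06e-06) and 0.79 ± 0.097 (adjusted p = 1.39e-04). Rph (rabphilin) differed by 1.15 ± 0.080 (adjusted p = 3.29e-07) from other and 0.67 ± 0.098 (adjusted p = 3.72e-04) from dopaminergic neurons. The peptide-processing enzymes of the list were higher than in other neurons, at 0.64 for the hydroxylase Phm, 0.83 and 0.42 for the lyases Pal2 and Pal1, 0.66 for the carboxypeptidase svr and 0.27 for the convertase amon, but amon was lower than in dopaminergic neurons (-0.36 ± 0.080, adjusted p = 0.00584). Complexin, cpx, was higher than in other and dopaminergic neurons (0.69 ± 0.077, adjusted p = 1.32e-05 and 0.56 ± 0.074, adjusted p = 1.77e-04). Frq1, a calcium sensor, and Syx1A, a SNARE protein, were lower than in both (-1.08 ± 0.081, adjusted p = 5.19e-07 and -0.46 ± 0.12, adjusted p = 0.01297 for Frq1, -0.65 ± 0.050, adjusted p = 6.24e-07 and -0.24 ± 0.061, adjusted p = 0.0125 for Syx1A). The calls of both against dopaminergic neurons were lost without the run as a block, and that of Syx1A without run 1. Against Tdc2 neurons brp, the active zone scaffold, was lower (-0.49 ± 0.066, adjusted p = 3.03e-04).

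Dpr and DIP genes encode 2 families of surface proteins that bind each other at synapses and help neurons choose partners. Of 28 counted (of 31 in the files), 9 were higher and 6 lower than in other neurons (median -0.066), shares not far from those over all genes (24% and 22.6%), 4 and 8 of 28 against dopaminergic neurons (median -0.11), and 1 and 7 of 28 against Tdc2 neurons (median 0.082). CG31646, now called DIP-theta, ran from 107 to 432 CPM with a median of 193 CPM in members and 91.1 to 118 CPM in other neurons, with differences of 1.06 ± 0.17 (adjusted p = 2.41e-04) from other and 1.33 ± 0.21 (adjusted p = 5.98e-04) from dopaminergic neurons. Of the Dpr genes, dpr18 was higher than in the same populations (1.12 ± 0.091, adjusted p = 9.67e-07 and 0.60 ± 0.093, adjusted p = 5.32e-04) and dpr10 was lower in all 3 comparisons (-0.68 ± 0.094, adjusted p = 7.34e-05, -0.95 ± 0.10, adjusted p = 4.29e-05 and -0.76 ± 0.14, adjusted p = 0.00354). CG14010, now DIP-eta, was near 6.596 CPM, under the filter level, and lower than in other neurons (-1.85 ± 0.27, adjusted p = 1.12e-04). Clock and activity-regulated genes counted 1 higher and 2 lower of 6 against other neurons (median -0.071), 1 lower of 7 against dopaminergic neurons (median -0.15) and none called of 7 against Tdc2 neurons (median 0.016). For both lists, the shares over all genes were 12.3% and 11.7% against dopaminergic neurons and 3.15% and 3.79% against Tdc2 neurons. Since time of day could not be told apart from run, cycling was not read.

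Over all genes, 1210 were higher and 1187 lower of 5042 tested against other neurons (24% and 23.5%), 645 and 603 of 5107 against dopaminergic neurons (12.6% and 11.8%), and 181 and 204 of 5075 against Tdc2 neurons (3.57% and 4.02%). With library totals alone in place of TMM factors, which moved the median of all genes from -0.0075 to 0.056, the split against other neurons became 1488 higher and 933 lower. The largest differences, by a rule of size, brought up genes outside the lists. Arc1, which encodes a capsid-forming protein regulated by neuronal activity, ran from 33.5 to 1828 CPM with a median of 804 CPM in members and 16.7 to 61.2 CPM in other neurons and differed by 3.87 ± 0.49 (adjusted p = 3.82e-05), 3.91 ± 0.55 (adjusted p = 2.78e-04) and 4.54 ± 0.43 (adjusted p = 1.42e-05). The tetraspanin lbm, under the filter level in all 3 other populations, differed by 3.39 ± 0.17 (adjusted p = 1.86e-08), 4.02 ± 0.32 (adjusted p = 3.62e-06) and 4.26 ± 0.27 (adjusted p = 3.37e-07). The gene twit, a small surface protein known as a target of the BMP receptor wit (chromosome arm 2L, 20852578 to 20857113, forward strand), ran from 74.03 to 361 CPM with a median of 158 CPM in members and 20.3 to 30.03 CPM in other neurons, with differences of 2.78 ± 0.23 (adjusted p = 1.01e-06), 2.93 ± 0.51 (adjusted p = 0.00111) and 4.01 ± 0.36 (adjusted p = 1.04e-05). AnxB9, an annexin, differed by 2.31 ± 0.27 (adjusted p = 1.71e-05), 2.53 ± 0.38 (adjusted p = 4.74e-04) and 3.69 ± 0.28 (adjusted p = 2.00e-06). It was higher in glia, at 251 to 638 CPM with a mean of 408 CPM, than in members, at 63.5 to 268 CPM with a mean of 136 CPM. CG42394, of which no role is given here, differed by 2.69 ± 0.25 (adjusted p = 2.61e-06) from other neurons and by 3.31 ± 0.40 (adjusted p = 9.44e-05) from dopaminergic neurons. In Tdc2 neurons CG42394 lay at 96.2 to 143 CPM and in glia at 71.4 to 169 CPM. Both overlapped with the members' 81.1 to 697 CPM.

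These differences came from a minority of the members. At least 5 UMIs were reached by Arc1 in 35, by lbm in 39, by twit in 40, by AnxB9 in 39 and by CG42394 in 48 of 362 members. The 36 members with the most UMIs of each gene held 97.3% of the UMIs of Arc1, 83.2% of lbm, 94.8% of twit, 91.5% of AnxB9 and 90.2% of CG42394. For Ddc the corresponding share was 28.9%, for Pu 51.6% and for JhI-21 47.9%, so these were spread more evenly.

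The same rule of size named further genes. Hsp23, a small heat shock protein, ran from 92.5 to 847 CPM with a median of 304 CPM in members and 54.05 to 93.7 CPM in other neurons (2.14 ± 0.26, adjusted p = 2.41e-05). Tdc2 neurons, at 233 to 547 CPM of Hsp23, lay within the members' range. CG8066 differed by 2.77 ± 0.19 (adjusted p = 3.10e-07) from other neurons. The paired spalt zinc-finger genes salm and salr differed by 2.41 ± 0.22 (adjusted p = 9.06e-06) and 2.37 ± 0.21 (adjusted p = 8.54e-06) from dopaminergic neurons, and Sox102F by 2.01 ± 0.29 (adjusted p = 3.24e-04) from dopaminergic and 2.13 ± 0.26 (adjusted p = 1.18e-04) from Tdc2 neurons. The gene cv-2, a secreted protein that binds BMPs, differed by 2.80 ± 0.29 (adjusted p = 3.66e-05) from dopaminergic neurons, and Dscam3, a cell adhesion protein, by 2.53 ± 0.18 (adjusted p = 1.18e-06) from Tdc2 neurons. Under the filter level in the other population were CG8066 in other neurons, salm, Sox102F and cv-2 in dopaminergic neurons, and Sox102F, twit and AnxB9 in Tdc2 neurons.

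On the lower side, the noncoding RNA CR44832 and its neighbour CG12239 on the X chromosome (5790952 to 5791536 and 5792140 to 5794543) were both lower than in other neurons (-4.38 ± 0.27, adjusted p = 1.81e-07 and -4.13 ± 0.30, adjusted p = 4.01e-07) and than in dopaminergic neurons (-2.74 ± 0.53, adjusted p = 0.00232 and -2.34 ± 0.38, adjusted p = 7.74e-04). In dopaminergic neurons they varied widely by run and overlapped with members. CR44832 ran from 12.1 to 827 CPM there and 0 to 52.4 CPM in members, and CG12239 from 21.5 to 1333 CPM and 8.96 to 122 CPM. AstC, AstA, Trissin and SIFa, which encode peptides and entered through other neurons, completed the list against them, at 12.1, 6.35, 5.14 and 8.82 CPM in the members' mean and 176, 123, 91.97 and 87.9 CPM there. Against dopaminergic neurons, pros, a homeodomain factor, ran from 989 to 3225 CPM with a median of 1408 CPM in members and 8322 to 11638 CPM in dopaminergic neurons (-2.56 ± 0.20, adjusted p = 2.50e-06), dve, another homeodomain factor, differed by -2.95 ± 0.27 (adjusted p = 9.11e-06), CG15082 by -5.16 ± 0.26 (adjusted p = 1.63e-07), CR43283 by -2.50 ± 0.20 (adjusted p = 2.84e-06) and CG1402 by -2.19 ± 0.12 (adjusted p = 1.63e-07). Of these, dve, CG15082 and CR43283 were under the filter level in members. Against Tdc2 neurons, dmrt99B and Sox21a, both transcription regulators, had 2 and 5 UMIs in all members together, so no fold is given, and 81.3 and 60.3 CPM in the mean of Tdc2 neurons. The regulator vg, the neprilysin peptidase Nep2 and Dl, the Notch ligand Delta, with 59, 15 and 95 UMIs in members, also entered through Tdc2 neurons, where they had 304, 139 and 170.2 CPM in the mean. The noncoding RNA CR44165 had 0 UMIs in all members and 176 CPM in the mean of Tdc2 neurons, which is at least 406-fold above what 3 counts over all members would give.

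Variation among the members themselves was described by the residual variance of each gene over members beyond that of counting. The 20 genes with the largest values were pros, Dop2R, CR41602, CG14989, Hsromega, IA-2, hth, CR31451, Ms, Proc, vvl, CR41609, mbl, Ggamma30A, VGlut, CG2269, Arc1, CG42541, cv-2 and CG42394. Some of them are abundant in nearly all members, such as the ribosomal RNA pseudogenes CR41602 and CR41609, the heat shock noncoding RNA Hsromega and IA-2, and 10 members alone reached 5 UMIs of Ms. Proc reached 5 UMIs in 69 members, vvl in 75, VGlut in 79, CG14989 in 122 and cv-2 in 25, and hth, a homeodomain cofactor, in 222. Levels of pros lay between 989 and 3225 CPM by run. The groups below were formed from these genes after their values had been seen, so their differences are descriptions without a test, given as means over the runs with at least 3 members in the group.

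Members with at least 5 UMIs of Proc (69, in all 7 runs) held most of the genes named for few carriers. Inside and outside the group, the mean level was 694 against 11.8 CPM for twit, 452 against 14.1 CPM for AnxB9, 1075 against 46.3 CPM for CG42394, 439 against 6.47 CPM for cv-2, 469 against 17.4 CPM for GstD1, a glutathione transferase, and 995 against 61.4 CPM for rhea, the fly talin. The runs did not overlap in any of them. The share of all genes without overlap is not given here, so no weight can be put on that. Of the 40 members with 5 UMIs of twit, 38 also had 5 of Proc, and of the 25 with cv-2 24 had. 37 of the 69 also reached 5 UMIs of VGlut. Dat was 457 against 155 CPM. The receptors were lower within the group, with 263 against 555 CPM for 5-HT1A, 74.3 against 189 CPM for Oamb and 75.3 against 232 CPM for Octbeta2R, and the transcription factors slp1, disco-r and ap had 0.277, 1.05 and 0.832 CPM against 58.7, 53.6 and 50.3 CPM. The group was deeper, with a median of 23537 UMIs against 14317 outside, and the part of depth was not tested.

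**Figure D4:**
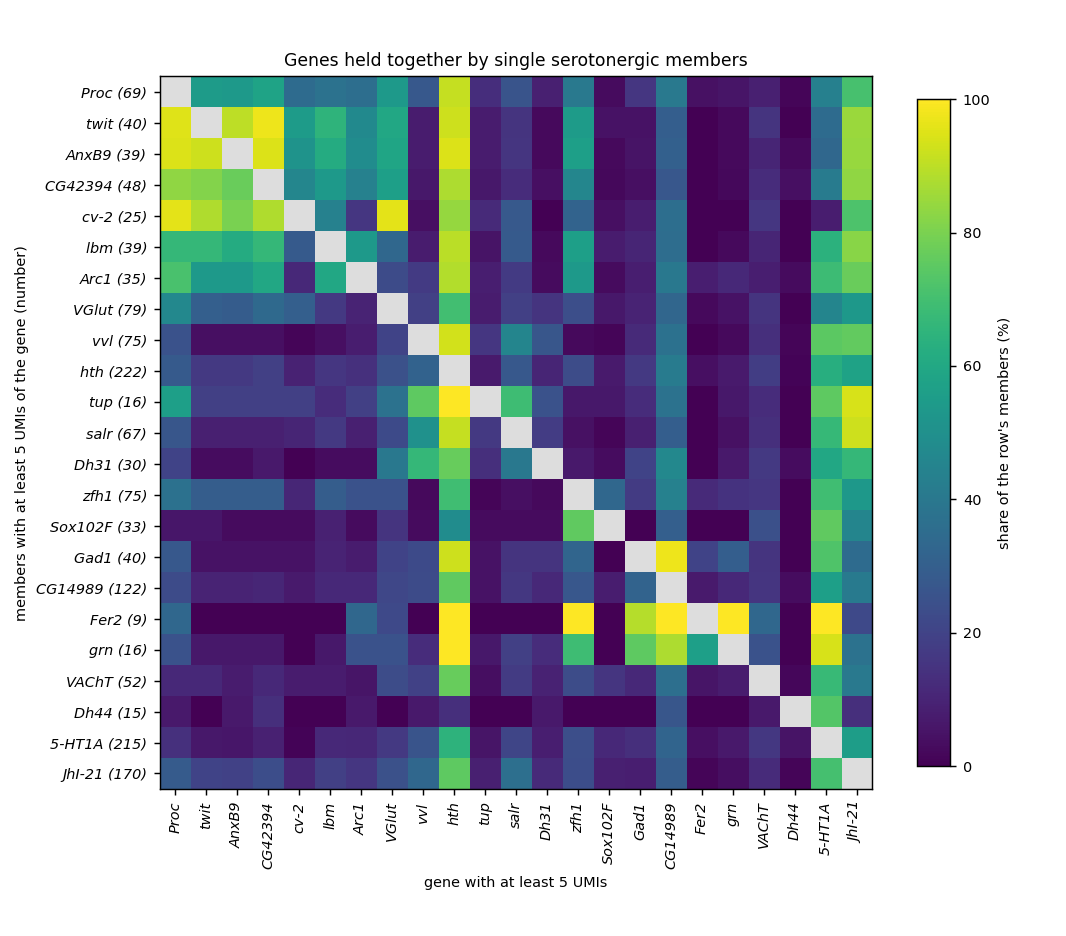
For each gene on the left, with the number of members that reach 5 UMIs of it in brackets, the color gives the percentage of those members that also reach 5 UMIs of each gene along the bottom (grey on the diagonal). Proc, twit, AnxB9, CG42394 and cv-2 share members, 24 of 25 cv-2 members holding Proc, whereas vvl and zfh1 share 2, and hth is widely shared.

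The factors vvl and zfh1 marked groups that barely met. 75 members reached 5 UMIs of vvl and 75 of zfh1, both with carriers in all 7 runs, and 2 reached both. In the vvl group, svp, a nuclear receptor, was at 168 against 5.54 CPM, the homeodomain genes exex, en and inv at 90.5 against 0.992 CPM, 83.97 against 1.63 CPM and 81.3 against 0.596 CPM, Lim3 at 150.2 against 13.3 CPM, the Hox gene Scr at 74.5 against 3.53 CPM and tup, the fly islet, at 119 against 20.8 CPM. The cofactor hth was at 3169 against 945 CPM and reached 5 UMIs in 70 of the 75. JhI-21 was at 1019 against 407 CPM, and TyrR, at 12.9 against 88.7 CPM, and SoxN, at 29.9 against 205 CPM, were low. In the zfh1 group, TyrR was at 142 against 41.3 CPM, Dop1R2, a dopamine receptor, at 129 against 63.1 CPM, and GABA-B-R3, a metabotropic GABA receptor, at 89.9 against 32.5 CPM, while JhI-21 was at 264 against 694 CPM and salr at 11.9 against 176 CPM. Neither group overlapped between runs for TyrR, but the share of all genes without overlap is not given here. The median depth was 16852 UMIs in the vvl group against 15556 outside, and 24705 in the zfh1 group against 13920 outside. The part of depth was not tested.

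The members with fast transmitter genes also differed in other genes. These groups were deeper, with medians of 19064, 21987.5 and 21764 UMIs for VGlut, Gad1 and VAChT, against 14927, 15015 and 14987 UMIs outside. The part of depth was not tested. In the 79 members with 5 UMIs of VGlut (5 runs with at least 3 of them), the homeodomain genes scro, mirr and oc were at 184 against 23.5 CPM, 245 against 46.96 CPM and 67.8 against 10.5 CPM. In the 40 members with Gad1 (4 such runs), CG14989 was at 5594 against 260.2 CPM, the bHLH factor Fer2 at 134 against 6.27 CPM, the GATA factor grn at 155 against 12.1 CPM and Lim1 at 270.0 against 71.01 CPM. In other neurons as a whole, Fer2 had 10.1 CPM and grn 26.5 CPM. CG14989 and Gad1 lie on opposite strands (chromosome arm 3L, 4087581 to 4092706, forward strand and chromosome arm 3L, 4074077 to 4088744, reverse strand). They overlap only from 4087581 to 4088744, a stretch at the start of both genes. The paper names a Single Cell 3' kit, and the 3' ends of both genes lie outside this stretch. Only reads within it would need strand to be told apart, and the sources used here do not state whether strand was counted. The part of such reads in the level of CG14989 was not tested. In the 52 members with VAChT (4 such runs), Cha, the choline acetyltransferase, was at 232 against 39.8 CPM and CG7708, a choline transporter, at 305 against 41.1 CPM, while Pu and JhI-21 were at 93.5 against 250.0 CPM and 206 against 535 CPM. Scrublet called 10% of the Gad1 group, 8.86% of the VGlut group, 7.69% of the VAChT group, 4.35% of the Proc group, 4% of the vvl group and 0 of the zfh1 group. Of the groups with the genes Dh44, Dh31 and Arc1, described next, it called 13.3%, 10% and 2.86%. The part of such pairs of cells in these groups was not tested.

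Small groups also carried peptide genes. Dh31 reached 5 UMIs in 30 members, of which 20 had 5 UMIs of vvl, and Ets65A was at 123 against 16.1 CPM there (3 runs). Dh44, a diuretic hormone, reached it in 15 members, where the large Maf factor tj was at 149 against 5.62 CPM, zfh2 at 480.5 against 164 CPM and hth at 295 against 1286 CPM (5 runs). Arc1 reached it in 35 members, 25 of them with Proc, and there the homeodomain and paired-box genes pb and sv were at 101 against 3.28 CPM and 192 against 5.62 CPM (6 runs). The median depth was 30442 UMIs in the Arc1 group against 14996 outside. It was 14999 against 16023 for Dh31 and 12514 against 16080 for Dh44.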

How the data were processed

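Single cells of 7 pooled brain samples were profiled with droplet sequencing. The authors mapped reads and counted UMIs per gene and barcode with Cell Ranger 3.1.0 on BDGP6, and the submitters' processing notes also name Scanpy 1.4.4. The deposited matrices hold raw UMI counts without the authors' filters, between 49949595 and 311443505 UMIs per run. A deposited table of lines, ages, conditions and times served to describe the runs. The members and gene lists were chosen with earlier results of these data known.

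UMIs were summed per run and population and tested with edgeR 4.0.16 (R 4.3.3, limma 3.58.1; TMM factors, two-sided quasi-likelihood test, Benjamini-Hochberg adjustment over all genes tested). Both populations of a comparison come from the same library, so the run was a block. Genes entered where CPM reached 10 UMIs over the median total of the serotonergic libraries in at least as many libraries as runs. List counts and medians were limited to genes at that level in the mean of both populations, a choice made after seeing the data. On simulated counts, 91% of genes changed 2-fold were recovered against other neurons and 93% against dopaminergic and Tdc2 neurons, and 100% of those changed 4-fold. The simulated counts had the same dispersion for every gene and no difference between runs. These shares therefore do not give the recovery in the real counts, where the spread over runs differed by gene.

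Genes named outside the lists were the 10 higher and 10 lower called genes of largest log2 difference per comparison, with the same direction in every run and a mean of at least 50 CPM where higher, without rule or gate genes, and the 20 genes of largest variation among members (Pearson residuals, theta 100). Of 306 listed genes, 305 were matched by symbol, some by an older one. Positions are those of the Ensembl annotation of BDGP6. Doublets were not removed beyond the rule. Scrublet (Scanpy 1.11.5) was an alternative, and in runs 6 and 7, where its own threshold called no barcode, that of run 1 (0.294) was used. Other alternatives were DESeq2 1.42.0, library totals alone, no filter, no block, other limits on barcodes, each run left out, the runs split by their smallest barcode (chosen after seeing the data) and an exact two-sided sign-flip test over runs on log2 CPM with a pseudocount of 1 CPM.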

Additional observations from a re-analysis of the deposited data

Results flagged for a closer look

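Of 143 values tested (the levels of 141 genes in serotonergic neurons, their share and their depth), 15, all of them gene levels, had 1 run that stood apart from the other 6 by Dixon's criterion, where chance gives about 1 in 20. Run 7, with 17 members, was high for the transcription factors vvl (645 CPM, against 176 to 348 CPM in the other runs), Lim3 (122 CPM, against 15.7 to 46.5 CPM), en (50.8 CPM, against 8.55 to 24.7 CPM) and inv (50.8 CPM, against 7.05 to 21.6 CPM). The homeodomain gene mirr was at 0 in run 7 and at 70.5 to 123 CPM elsewhere. Pal1, a lyase of peptide processing, was at 62.7 CPM in run 7 and 42.6 to 51.1 CPM elsewhere. The genes vvl, Lim3, en and inv are those that were high together in the members with vvl.

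Run 4 was high for the peptide genes Hug (69.6 CPM, against 0 to 12.4 CPM), AstC (48.3 CPM, against 0 to 15.1 CPM), SIFa (42.6 CPM, against 0 to 7.05 CPM) and Trissin (22.1 CPM, against 0 to 7.09 CPM), and for the peptidase Nep2 (7.37 CPM, against 0 to 2.62 CPM). Ms was at 5402 CPM in run 3 and 5.29 to 1903 CPM elsewhere. In run 6, with 19 members, Phm was at 222 CPM and Dop1R2 at 136 CPM, against 141 to 147 CPM and 62.7 to 87.6 CPM. The gene vg was at 22.3 CPM in run 2 and 0 to 6.64 CPM elsewhere. In run 4 no member held more than 3 of the 52 UMIs of SIFa or of the 27 of Trissin, whereas 1 member held 33 of the 85 UMIs of Hug and 1 held 18 of the 59 of AstC. In run 3, 1 member held 12096 of the 12195 UMIs of Ms.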

How the results depend on the processing

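In runs 1, 5, 6 and 7 alone, which hold fewer members, 692 genes were higher and 631 lower than in other neurons, 247 and 256 against dopaminergic neurons, and 72 and 127 against Tdc2 neurons. On leaving out 1 run, the counts lay between 1028 and 1271 higher and 902 and 1198 lower, 454 and 649 higher and 423 and 619 lower, and 142 and 209 higher and 162 and 198 lower in the same order, and the mean share of serotonergic barcodes between 0.205% and 0.227%. Without the run as a block (the pairing of both populations within a library), 369 genes were higher and 320 lower than in dopaminergic neurons, against 645 and 603 with it. Without the filter, 351 were higher and 357 lower than in Tdc2 neurons, against 181 and 204. With library totals alone, 61.5% of the calls against other neurons were higher, against 50.5%.

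Among the genes named with a difference, 60 of 71 calls against other neurons, 39 of 52 against dopaminergic neurons and 30 of 34 against Tdc2 neurons were kept in every alternative that tested them, and none changed direction. Lost in at least 1 alternative were 5-HT7, Dat, Dh44-R1, Dop2R, GABA-B-R2, Nmdar2, Pal1, Pdfr, Proc, amon and sNPF-R against other neurons. Against dopaminergic neurons they were Dop2R, EcR, Frq1, Oamb, Proc, Rph, Sptr, Syx1A, amon, nub, pdm2, prt and sNPF-R, and against Tdc2 neurons Dh44-R1, Dop2R, Pdfr and dpr10. The cause was not tested. Thinned to 500 UMIs, the share of members with Gad1 was 6.50%, and with theta at 10 the variation list shared 12 of 20 genes. Genes under 10 UMIs in a serotonergic library of median size were mostly left untested, and runs 6 and 7 rest on 19 and 17 members.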
